A study of Rhodotorula toruloides with 36 samples.

Results

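Scaffold 3 is one of the longer pieces of the assembled genome of the oleaginous yeast Rhodosporidium toruloides IFO0880, and its transcripts are described here as a block of neighbours. All transcripts listed on scaffold 3 were taken, with 780 of the 782 entries analysed and 2 further transcripts of the scaffold not analysed here. They are 780 of 8490 native transcripts, or 9.19%. The scaffold was chosen by measured values known from earlier results of these same libraries. Which values these were is not recorded, and the difference of its transcripts between the strain BIS3 and WT, at 18 h or at both times, is taken to be among them. The block difference between strains is therefore given as a description with no test, and tests are given for single transcripts only.

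The strains were GB2, BIS3, BIS14, BIS18 and the wild type IFO0880 (WT), sampled at 48 h and at 18 h of growth in synthetic defined (SD) medium, for which the labels give 2% glucose. The study's own text gives a lower concentration for these cultures, and the sources thus disagree. BIS3, BIS14 and BIS18 carry the cassette PGAPDH-BIS, in which the native promoter of a glycolytic enzyme gene drives a synthase (BIS) for the sesquiterpene α-bisabolene. GB2 was made from BIS3 and carries PANT-BIS in addition, so that everything inserted in BIS3 is shared by GB2. The cassettes were placed in the genome at random by Agrobacterium-mediated transformation, and each engineered strain is a single line, so that cassette, insertion site and any other change of that line cannot be told apart. There were 3 libraries of each engineered strain at each time, 5 of WT at 48 h and 6 of WT at 18 h. The 48 h library of WT replicate 2 was left out. The labels do not say whether replicates were separate cultures, and the p-values measure only the spread between these libraries, which may be technical.

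R. toruloides is a basidiomycete that stores lipid and makes carotenoids, and it supplies farnesyl diphosphate, the substrate of bisabolene synthase, through its own mevalonate pathway. As a culture passes out of exponential growth and uses up its nutrients, yeasts in general change the transcription of a large part of the genome, with growth genes falling and genes of stress, storage and scavenging rising. A scaffold is a stretch of assembled sequence that may be a whole chromosome or a piece of one. Genes along a fungal chromosome are mostly controlled one by one, so that a block of neighbours usually holds genes of unrelated function. The transcripts carry numbers here and no gene names, so positions and values are given and no functions. Each library came from a bulk culture, in which fewer cells with a transcript and less of it per cell cannot be told apart.

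The 35 libraries held 1092869 to 3102440 counts. BIS averaged 33974 counts in GB2, 18250 in BIS3, 9567 in BIS14, 1927 in BIS18 and 10.4 in WT libraries at 48 h. At 18 h it averaged 34469 counts in GB2, 19233 in BIS3, 9486 in BIS14, 1481 in BIS18 and 6.67 in WT libraries. These means of raw counts ranked the strains alike at both times. Single libraries of BIS14 and BIS3 overlapped at 48 h, with 13077 counts in BIS14 replicate 2 and 12546 in BIS3 replicate 2. The time labels are not checked by these counts. The 18 h libraries of BIS14 replicate 1 and BIS3 replicate 2 stood apart from the other replicates in several transcripts below, and their normalization factors were 0.841 and 0.776.

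The 780 transcripts ran from base 1 to base 1847965 of the scaffold and were packed closely. On the plus strand lay 377 of them and on the minus strand 403, with a median gap of 148 bases between neighbours. Their median listed length was 1772 bases (265 to 7484), against 1784.5 bases over the other native transcripts. As many as 167 (21.4%) overlapped a neighbour. The library kit does not mark strand, so reads in such overlaps cannot be assigned to one of the pair. Among the transcripts named below, this holds for 12905, 12909, 13147, 13283, 13432 and 13468.

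The scaffold's transcripts were about as abundant as those elsewhere. Levels between transcripts are given as FPKM, read counts scaled to the transcript's length and the library's total, averaged over the 35 libraries. The median was 30.7 FPKM on scaffold 3 and 29.9 FPKM over the other native transcripts. On the other 17 scaffolds with at least 100 transcripts the median lay between 26.0 FPKM (scaffold 15) and 49.5 FPKM (scaffold 16). On scaffold 3, 20 transcripts (2.56%) averaged under 1 FPKM, against 3.96% elsewhere, and 111 (14.2%) averaged over 100 FPKM, against 13.5% elsewhere. None of the 780 was without counts in all libraries.

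A few transcripts carried much of the signal, the top 6 holding 8.78% of the scaffold's counts. Transcript 13227 (876719 to 878353, plus strand) averaged 1498 FPKM and transcript 12953 (230802 to 232972, plus strand) averaged 1183 FPKM, and these were the only members over 1000 FPKM. The next were transcript 13190 at 877 FPKM (792952 to 793587, minus), 13532 at 715 FPKM (1610086 to 1610551, minus), 13552 at 693 FPKM (1645472 to 1646699, minus) and 13066 at 689 FPKM (491173 to 492372, minus). The 6 were spread over 5 of the 19 bins of 100 kb, bins 3, 5, 8, 9 and 17.

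Level varied along the scaffold in no simple gradient. The 19 bins, numbered from the start of the scaffold, held 23 to 50 transcripts each. Bins 10 and 11, in the middle, had the lowest median levels, 16.5 and 19.1 FPKM. Bin 18, next to the far end, had the highest at 48.6 FPKM, followed by bin 14 at 44.9 FPKM and bin 8 at 43.2 FPKM. The share of the scaffold's counts that fell in a bin lay between 2.17% (bin 19, which is short) and 7.72% (bin 3).

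Between growth phases, more scaffold 3 transcripts were higher at 48 h than lower, in every strain. In WT, 333 of 746 transcripts tested (44.6%) passed the test with a higher level at 48 h than at 18 h, and 219 (29.4%) with a lower one. The test was the quasi-likelihood test of edgeR with Benjamini-Hochberg adjustment over all transcripts, at an adjusted p under 0.05. Over all 7899 transcripts tested the calls were 37.1% higher and 34.9% lower, nearly balanced. The remaining 34 members were too sparse for this test. In GB2, 266 (35.7%) were higher and 198 (26.5%) lower, against 31.9% and 32.0% of all transcripts. In BIS3, 286 (38.3%) were higher and 166 (22.3%) lower, against 31.9% and 29.7%. In BIS14 the counts were 229 (30.7%) higher and 166 (22.3%) lower, against 27.0% and 26.9%, and in BIS18 they were 246 (33.0%) higher and 175 (23.5%) lower, against 28.3% and 28.5%.

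The size of this tilt was small beside the changes of single transcripts. The median log2 change of the members at 48 h over 18 h lay above that of all other transcripts by 0.102 in GB2, 0.148 in BIS3, 0.089 in BIS14, 0.091 in BIS18 and 0.159 in WT. In WT scaffold 3 ranked highest of 18 scaffolds, the others lying between −0.178 and 0.156. It ranked 4th in GB2, 2nd in BIS3, 3rd in BIS14 and 2nd in BIS18, so that other scaffolds tilted as much. The scaffold's share of all native counts was accordingly larger at 48 h in every strain. It was 8.69 ± 0.050% at 48 h against 7.60 ± 0.098% at 18 h in GB2 (SD, n = 3 each) and 9.99 ± 0.072% against 8.89 ± 0.33% in BIS3. In BIS14 it was 8.66 ± 0.20% at 48 h against 8.25 ± 0.027% at 18 h, and in BIS18 8.89 ± 0.031% against 8.35 ± 0.056% (SD, n = 3 each). In WT it was 9.03 ± 0.13% at 48 h (SD, n = 5) against 8.13 ± 0.10% at 18 h (SD, n = 6).

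The growth-phase change differed between bins, as it did elsewhere. Over 191 bins of the other scaffolds the medians in WT, relative to all transcripts off scaffold 3, had an SD of 0.192. They lay between −0.437 and 0.644, and 51.3% lay above 0. Extremes over 191 bins are not comparable with extremes over 19. On scaffold 3 in WT, bin 10 lay 0.595 above the median log2 change of all other scaffolds' transcripts, with 25 of its 38 transcripts higher at 48 h and 5 lower. Bin 13 lay below it, at −0.221, with 7 of 39 higher and 18 lower. In all, 14 of the 19 bins lay above the other scaffolds in GB2, 14 in BIS3, 13 in BIS14, 12 in BIS18 and 14 in WT. Bin 3 lay highest in GB2 (0.809), BIS14 (0.423) and BIS18 (0.360), and bin 2 in BIS3 (0.523). The median level in WT, as log2(FPKM + 1) on raw library totals, was 5.07 at 48 h and 5.56 at 18 h in bin 8. On this scale the other native transcripts were also higher at 48 h in WT, with medians of 5.15 at 48 h and 4.85 at 18 h, and normalized library sizes lower the scaffold's WT median at 48 h to 4.96 in place of 5.19. A higher FPKM at 48 h in a bin is therefore not by itself a change relative to other transcripts. In bin 10 it was 4.63 at 48 h and 3.77 at 18 h, and in bin 18 it was 5.93 at 48 h and 5.21 at 18 h.

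**Figure D1:**
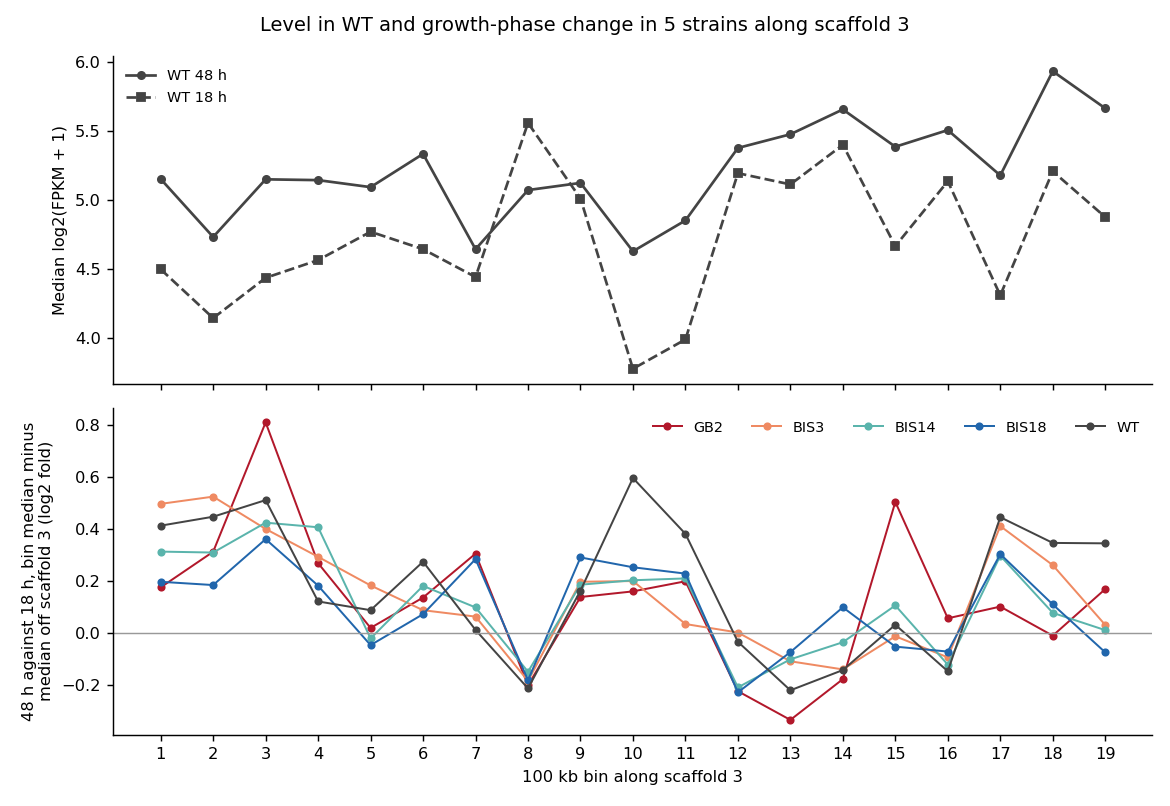
Level and growth-phase change along scaffold 3 in bins of 100 kb by transcript start: median log2(FPKM + 1) of the members in WT at each time (top), and the median log2 change at 48 h over 18 h of the members of a bin minus that of all transcripts on other scaffolds, a line per strain (bottom). In WT bin 10 stands highest for the change (0.595) and bin 13 lowest (−0.221), and bin 10 has the lowest level at both times (4.63 at 48 h, 3.77 at 18 h).

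A common core of members changed with growth phase in all 5 strains. Higher at 48 h in each strain were 139 members (18.6%), against 15.7% of all transcripts tested, and lower in each were 97 (13.0%), against 15.4%. No call was made in any strain for 66 members (8.85%, against 8.39% of all transcripts). For 56 members (7.51%) at least 1 strain was called higher and another lower, against 7.17% of all transcripts.

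The largest rises at 48 h in WT were from near silence at 18 h. Here and below, transcripts named as the largest changes of a comparison had to show no overlap between its libraries. Non-overlap in that comparison is thus a condition of naming and no result. Transcript 13608 (1789061 to 1790723, plus strand) had 871, 448, 961, 385 and 492 CPM (counts scaled to normalized library size) in WT at 48 h, and in WT at 18 h a lowest, median and highest of 0.804, 2.20 and 3.79 CPM. All 48 h libraries lay far above all 18 h libraries. The log2 fold change was 8.06 ± 0.30 (SE, edgeR adjusted p = 4.26e-22), and in the engineered strains it was between 5.72 in GB2 and 7.72 in BIS3. Transcript 12900 (103053 to 104397, minus strand) had 1150, 732, 873, 627 and 652 CPM in WT at 48 h, and 2.41, 5.25 and 8.83 CPM (lowest, median, highest) in WT at 18 h. It had a log2 fold change of 7.09 ± 0.27 (SE, edgeR adjusted p = 8.34e-22). Transcripts 13136, 13228 and 12905 followed with log2 fold changes of 5.82 ± 0.20, 5.46 ± 0.26 and 5.16 ± 0.31 (SE).

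The largest falls at 48 h in WT included transcripts 13160 and 13164, which lie close together in bin 8. Transcript 13160 (726473 to 727733, plus strand) had 10.9, 15.0, 10.2, 12.6 and 13.4 CPM in WT at 48 h, against 386, 494 and 633 CPM (lowest, median, highest) in WT at 18 h. Transcript 13164 (736193 to 738048, plus strand) had 41.9, 43.9, 38.5, 38.3 and 44.5 CPM in WT at 48 h, against 823, 1024 and 1273 CPM in WT at 18 h. In both, every 48 h library lay far below every 18 h library. The log2 fold changes were −5.34 ± 0.24 (SE, edgeR adjusted p = 5.78e-20) for 13160 and −4.65 ± 0.23 (SE) for 13164. Transcripts 13571, 13430 and 13130 had log2 fold changes of −4.12 ± 0.26, −3.87 ± 0.20 and −3.73 ± 0.12 (SE).

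Runs of neighbours with the same growth-phase call occurred. The longest run of members higher at 48 h in WT held 10 transcripts, 13542 to 13551 (1630371 to 1645169), with log2 fold changes of 0.90 to 3.46 and a median of 1.43. The longest run of members lower at 48 h held 6, transcripts 13157 to 13162 (716521 to 733473), from −5.34 to −0.25. The second includes 13160 and ends just before 13164. In the first, transcripts 13544, 13545, 13548 and 13549 overlap a neighbour, so that their calls may share reads. Run lengths on other scaffolds are not given here. With WT replicates 1 to 3 only, transcripts 13546 and 13550 of the first run were no longer called (edgeR adjusted p = 0.123 and 0.051).

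Between strains, scaffold 3 as a block lay above WT in BIS3 and did not do so in GB2, the strain made from BIS3. For each library the level of the block was taken as the median log2 CPM deviation of the members from their mean over libraries, minus the same median over all other transcripts. At 48 h it was 0.013, −0.018 and 0.004 in GB2, and 0.238, 0.213 and 0.223 in BIS3. It was 0.032, −0.025 and 0.004 in BIS14 and 0.041, 0.050 and 0.067 in BIS18, against 0.067, 0.074, 0.110, 0.102 and 0.103 in WT. The 3 BIS3 libraries lay above all others at 48 h, and the GB2, BIS14 and BIS18 libraries lay below all WT libraries, the highest of BIS18 only just. At 18 h it was −0.131, −0.119 and −0.147 in GB2, and 0.071, 0.054 and 0.077 in BIS3. It was −0.067, −0.101 and −0.076 in BIS14 and −0.080, −0.072 and −0.063 in BIS18, against −0.089, −0.070 and −0.051 (lowest, median, highest) in WT. Again BIS3 stood above and GB2 below every WT library, while BIS14 and BIS18 overlapped WT. The order of the 5 strains at 48 h was BIS3, WT, BIS18, BIS14 and GB2. The BIS14 and GB2 libraries overlapped. Within WT at 48 h, replicates 1 and 3 were at 0.067 and 0.074, and replicates 4 to 6 at 0.102 to 0.110. At 18 h, WT replicates 1 to 3 were at −0.081, −0.069 and −0.089, and replicates 4 to 6 at −0.051, −0.054 and −0.071, with overlap. Only WT has replicates 4 to 6, and the block was not compared with either set alone. Small differences from WT, as in BIS14 and BIS18, are to be read with this spread.

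**Figure D2:**
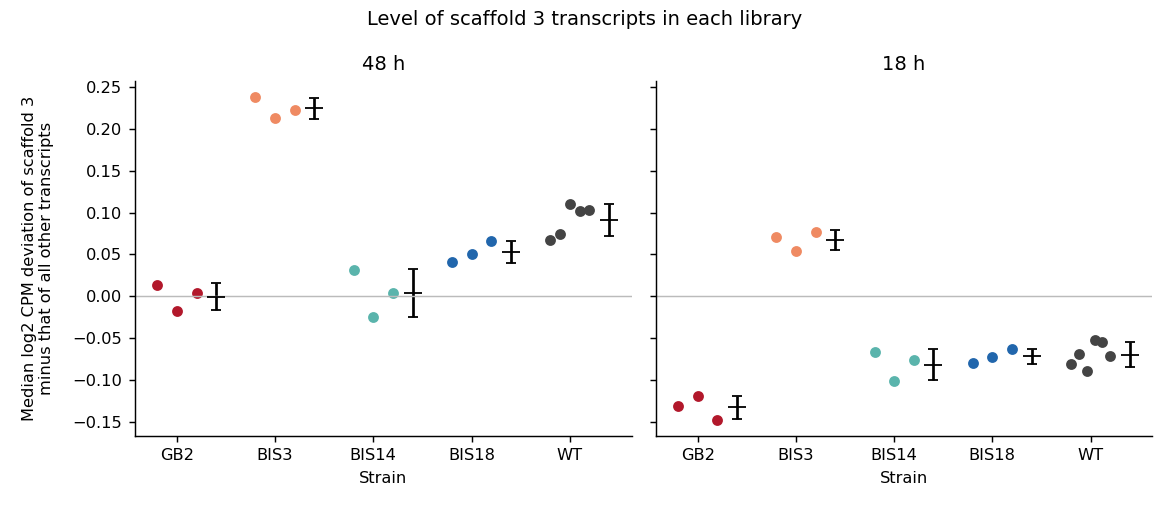
Level of scaffold 3 as a block in each of the 35 libraries, by strain and time (points are libraries, black bars the mean ± SD): median log2 CPM deviation of the members minus that of all other transcripts, log2 scale. BIS3 libraries lie at 0.213 to 0.238 at 48 h and at 0.054 to 0.077 at 18 h, above every library of the other strains at the same time.

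The other scaffolds give the scale of this difference. The median log2 difference of BIS3 from WT over the members, minus that over all other transcripts, was 0.147 at 48 h, where the other 17 scaffolds lay between −0.077 and 0.017. The 18 h median was 0.140, and the other scaffolds lay between −0.079 and 0.071. For GB2 against WT it was −0.102 at 48 h and −0.063 at 18 h, ranking 17th and 16th of 18. For GB2 against BIS3 it was −0.233 at 48 h and −0.200 at 18 h, the lowest of the 18 scaffolds at both times. The others lay between −0.041 and 0.520 at 48 h and between −0.070 and 0.460 at 18 h. The upper ends were set by scaffold 10, which was raised in GB2, and without it they were 0.068 and 0.063. BIS3 against WT and GB2 against BIS3 share the BIS3 libraries, so that values high in those libraries give opposite signs in the 2 comparisons, and neither is independent of how the scaffold was chosen. For BIS14 against WT the values were −0.070 at 48 h and −0.043 at 18 h, and for BIS18 against WT −0.028 and 0.013, all within the range of other scaffolds.

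**Figure D3:**
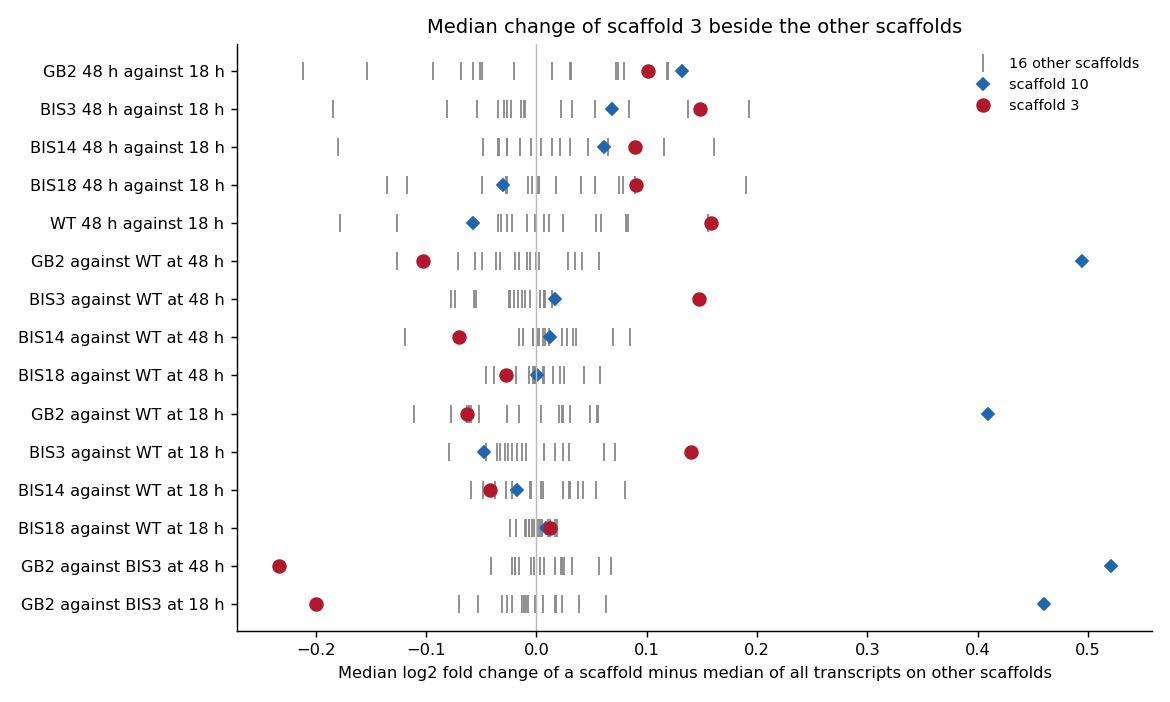
Median log2 difference of each of the 18 scaffolds with at least 100 transcripts from all transcripts on other scaffolds, for each comparison of strains and times, with scaffold 3 as a red circle, scaffold 10 as a blue diamond and the others as grey ticks. Scaffold 3 is highest for BIS3 against WT (0.147 at 48 h, 0.140 at 18 h) and lowest for GB2 against BIS3 (−0.233 at 48 h, −0.200 at 18 h).

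In counts of single transcripts, 201 of 748 members tested (26.9%) had a higher level in BIS3 than in the WT libraries at 48 h and 52 (6.95%) a lower one, against 13.5% and 11.5% of all 7913 transcripts tested. On the other scaffolds the share called higher lay between 5.84% and 17.1%. At 18 h, 177 of 693 members tested (25.5%) were higher in BIS3 and 62 (8.95%) lower, against 17.3% and 15.3% of all 7375 transcripts tested. Between 9.55% and 22.6% were higher on the other scaffolds. The low-count filter left 32 members untested at 48 h and 87 at 18 h. With the WT replicate 2 library of 48 h kept, 78 members were called in BIS3 at 48 h in both directions together, in place of 253. With WT replicates 1 to 3 only, 129 were called at 48 h, and 143 in place of 239 at 18 h.

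GB2 was also set against its parent, with the same BIS3 libraries as above. In this comparison 49 members (6.55%) were higher and 221 (29.5%) lower at 48 h, against 13.4% and 10.7% of all transcripts. At 18 h, 55 (7.94%) were higher and 163 (23.5%) lower, against 14.6% and 14.5%. The share called lower on the other scaffolds lay between 0.548% and 12.5% at 48 h and between 4.78% and 18.0% at 18 h. With the WT replicate 2 library of 48 h kept in the fit, 35 members were called at 48 h in place of 270, 5 higher and 30 lower.

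Calls at both times were counted as a description, since the values that chose the scaffold may be among them. Of the 693 members tested at both times, 85 (12.3%) were called higher in BIS3 at both, against 5.43% of all transcripts. They are 43.1% of the 197 called higher at 48 h and 48.0% of the 177 called higher at 18 h. Lower at both times were 7 (1.01%, against 3.13%). In GB2 against BIS3, 76 (11.0%) were lower at both times, against 3.36% of all transcripts. They are 35.02% of 217 called lower at 48 h and 46.6% of 163 at 18 h. Higher at both were 12 (1.73%, against 5.07%).

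The difference lay along most of the scaffold. This and the splits below describe the same libraries and may reuse the values that chose the scaffold, so they are no separate support. For BIS3 against WT at 48 h, 18 of the 19 bins lay above the median of the other scaffolds' transcripts, where 51.3% of 191 such bins elsewhere did. Bin 13 lay highest at 0.277, with 17 of 39 transcripts higher and 1 lower, and only bin 10 lay below, at −0.061. At 18 h, 16 of 19 bins lay above, against 49.7% elsewhere, with bin 12 highest at 0.294 (17 of 48 higher, 6 lower) and bin 1 lowest at −0.030. For GB2 against BIS3 at 48 h, all 19 bins lay below, between −0.358 in bin 5 (1 higher and 17 lower of 41) and −0.135 in bin 7. At 18 h, 17 of 19 did, between −0.365 in bin 19 and 0.038 in bin 1. Of the 191 bins elsewhere only 42.9% lay above at 48 h and 45.5% at 18 h, so that most of those lay below as well. Without scaffold 10 the shares above were 39.8% and 42.5%.

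The separation of libraries was counted by bin. At 48 h all BIS3 libraries lay above all WT libraries in 14 bins and below them in 0, and at 18 h in 10 bins and 0. All GB2 libraries lay below all BIS3 libraries in 18 bins at 48 h and in 14 at 18 h, and above them in 0 at either time. GB2 lay below every WT library in 9 bins at 48 h and in 5 at 18 h. BIS14 lay below every WT library in 6 bins at 48 h and in 3 at 18 h, and BIS18 in 3 and in 0. Above every WT library, GB2 lay in 0 bins at either time. BIS14 did so in 0 bins at 48 h and 1 at 18 h, and BIS18 in 1 at each time. No such count over the bins of other scaffolds is given here, so these numbers have no share elsewhere to be set against.

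**Figure D4:**
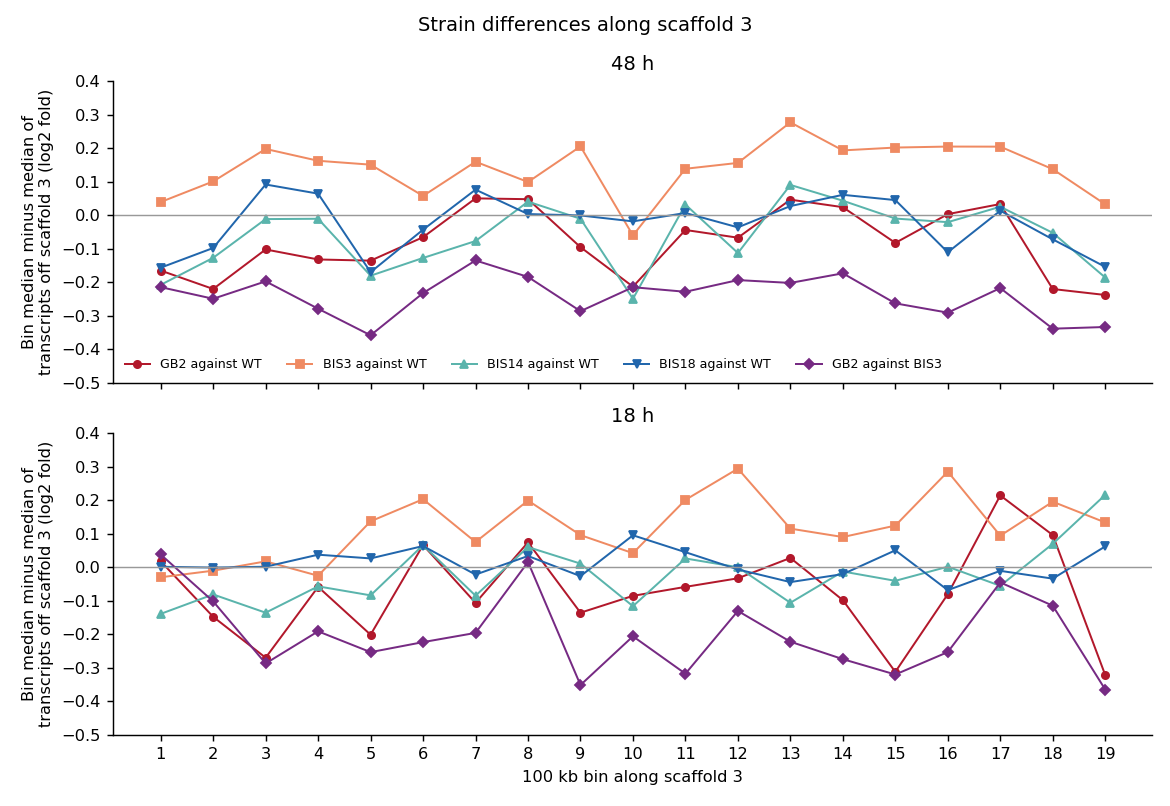
Strain differences along scaffold 3: median log2 difference of the members in each bin of 100 kb minus that of all transcripts on other scaffolds, for the strain comparisons at 48 h and at 18 h. BIS3 against WT lies above 0 in 18 of 19 bins at 48 h and in 16 at 18 h, and GB2 against BIS3 below 0 in 19 and in 17. Of the bins on other scaffolds, 51.3% and 49.7% lie above 0 in the first comparison, and 42.9% and 45.5% in the second.

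The difference was present in abundant and scarce and in long and short members. In BIS3 against WT at 48 h the difference from other transcripts was 0.145, 0.183 and 0.157 in the members of low, middle and high mean CPM, with the members split evenly in 3 and each part set against the like part of the other transcripts. It was 0.169, 0.113 and 0.168 in the short, middle and long members. At 18 h it was less even, at 0.090, 0.204 and 0.155 by mean CPM and 0.185, 0.078 and 0.162 by length. In GB2 against BIS3 at 48 h it was −0.249, −0.185 and −0.255 by mean CPM. Members on the plus and the minus strand differed by 0.151 and 0.143 in BIS3 against WT at 48 h, and by −0.234 and −0.235 in GB2 against BIS3 at 48 h. The 18 h values by strand were 0.172 and 0.104 in BIS3 against WT, and −0.168 and −0.225 in GB2 against BIS3. In BIS3 against WT at 48 h 66.3% of members had a positive log2 difference, against 48.5% of other transcripts, and in GB2 against BIS3 at 48 h 26.6% had one, against 50.6%. Many members thus lay against the block, and the larger changes of single members below ran in both directions.

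The calls in the other comparisons with WT were as follows. In GB2 against WT, 139 members (18.6%) were higher and 191 (25.5%) lower at 48 h, against 22.2% and 20.5% of all transcripts. At 18 h, 158 (22.8%) were higher and 201 (29.0%) lower, against 26.3% and 28.0%. In BIS14 against WT, 119 (15.9%) were higher and 147 (19.7%) lower at 48 h, against 19.5% and 16.3%, and 68 (9.81%) and 55 (7.94%) at 18 h, against 10.5% and 7.02%. In BIS18 against WT, 68 (9.09%) were higher and 72 (9.63%) lower at 48 h, against 11.1% and 7.82%. At 18 h, 1 member (0.144%) was higher in BIS18 and 0 lower, against 0.475% and 0.0542% of all transcripts. There 54 members had an unadjusted p under 0.05, and DESeq2 called 2. Totals and balances at 48 h moved with the libraries used. With the WT replicate 2 library kept, 135 members were called in GB2, 95 in BIS14 and 21 in BIS18 at 48 h, in place of 330, 266 and 140. In BIS14 at 48 h the balance turned when the WT libraries were limited to replicates 1 to 3, with 84 members higher and 68 lower, and also without BIS14 replicate 2, with 83 higher and 77 lower. In BIS18 at 48 h it turned under the same limit on WT, with 83 members higher and 60 lower, and 76 members were called without BIS18 replicate 1 or without replicate 2. At 18 h, 41 members were called in BIS14 with WT replicates 1 to 3 only, in place of 123, and without BIS14 replicate 1 the balance was 44 higher and 53 lower.

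The strongest single differences at 48 h were in transcripts 13160 and 13164, the growth-phase pair of bin 8. Transcript 13160 had 196, 219 and 225 CPM in GB2 and 32.9, 35.5 and 32.1 CPM in BIS3 at 48 h. It had 37.2, 66.1 and 31.8 CPM in BIS14 and 22.5, 37.2 and 37.8 CPM in BIS18, against 10.9, 15.0, 10.2, 12.6 and 13.4 CPM in WT. All engineered libraries lay above all WT libraries, and GB2 lay far above the rest. Over WT the log2 fold change was 4.10 ± 0.17 in GB2 (SE, edgeR adjusted p = 4.61e-14), and 1.42 ± 0.22, 1.89 ± 0.22 and 1.40 ± 0.21 (SE) in BIS3, BIS14 and BIS18. At 18 h it had 1758, 1991 and 1743 CPM in GB2, 2272, 1339 and 1950 CPM in BIS3, 2821, 1205 and 1099 CPM in BIS14 and 966, 854 and 972 CPM in BIS18. WT at 18 h had 386, 494 and 633 CPM (lowest, median, highest), again below every engineered library. GB2 over WT at 18 h was 1.81 ± 0.22 (SE, edgeR adjusted p = 9.41e-07), and BIS18 over WT at 0.89 ± 0.22 (SE) did not pass the test (edgeR adjusted p = 0.121).

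Transcript 13164, near 13160 and on the same strand, was likewise highest in GB2 at 48 h. It had 550, 618 and 742 CPM in GB2 and 74.9, 77.9 and 76.3 CPM in BIS3 at 48 h. It had 123, 385 and 179 CPM in BIS14 and 128, 166 and 143 CPM in BIS18, against 41.9, 43.9, 38.5, 38.3 and 44.5 CPM in WT. GB2 was highest and WT lowest, without overlap. The log2 fold change over WT at 48 h was 3.94 ± 0.22 in GB2 (SE, edgeR adjusted p = 1.43e-11), 2.48 ± 0.23 in BIS14 and 1.81 ± 0.23 in BIS18 (SE). The BIS18 call was lost with the WT replicate 2 library of 48 h kept (edgeR adjusted p = 0.0612). At 18 h it had 3620, 3633 and 3517 CPM in GB2 and 4349, 3102 and 3476 CPM in BIS3, against 823, 1024 and 1273 CPM (lowest, median, highest) in WT. In GB2 against BIS3 at 48 h the log2 fold changes were 3.07 ± 0.26 for 13164 and 2.68 ± 0.19 for 13160 (SE), while at 18 h GB2 and BIS3 overlapped in both.

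Transcript 13373 was lower than WT at 48 h in all engineered strains. At 1201134 to 1203705 on the minus strand, it had 52.3, 85.9 and 78.0 CPM in GB2, 71.4, 70.3 and 71.8 CPM in BIS3, 97.4, 68.5 and 91.1 CPM in BIS14 and 106, 115 and 125 CPM in BIS18 at 48 h. WT had 224, 300, 219, 290 and 288 CPM. No strain overlapped with WT, as the naming rule required in each. The log2 fold change was −1.88 ± 0.15 in GB2, −1.90 ± 0.15 in BIS3, −1.63 ± 0.15 in BIS14 and −1.20 ± 0.14 in BIS18 (SE, the largest edgeR adjusted p = 3.44e-06 in BIS18). At 18 h WT had 10.5, 12.0 and 15.5 CPM (lowest, median, highest), and BIS14 had 82.3, 11.1 and 10.7 CPM, 1 library apart from the other two.

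Transcript 12953, among the most abundant members, moved with growth phase in opposite directions in GB2 and WT. It had 2891, 3606 and 3685 CPM in GB2 at 48 h, against 1240, 847, 1474, 1077 and 1063 CPM in WT at 48 h. At 18 h it had 1352, 1658 and 1436 CPM in GB2, against 2617, 3031 and 3536 CPM (lowest, median, highest) in WT. GB2 lay above all WT libraries at 48 h and below all of them at 18 h. The log2 change at 48 h over 18 h was 1.20 ± 0.17 in GB2 and −1.45 ± 0.13 in WT, and the difference of the 2 changes was 2.64 ± 0.21 (SE, edgeR adjusted p = 7.45e-12). BIS3, BIS14 and BIS18 lay above WT at 48 h as well, by 1.14 ± 0.13, 1.11 ± 0.13 and 1.31 ± 0.13 (SE, log2), and did not pass the test at 18 h.

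Transcripts 13600 and 12859 led the rises in BIS3 at 48 h. Transcript 13600 (1764183 to 1764617, minus strand) had 26.4, 16.1 and 17.6 CPM in GB2, 17.7, 18.8 and 18.1 CPM in BIS3 and 36.1, 23.8 and 24.8 CPM in BIS14 at 48 h, against 1.82, 2.40, 3.77, 5.15 and 6.31 CPM in WT. All 3 strains lay above WT without overlap, with log2 fold changes of 2.23 ± 0.27, 2.08 ± 0.28 and 2.73 ± 0.27 (SE). Transcript 12859 (7688 to 10353, minus strand) had 278, 357 and 315 CPM in BIS3, against 114, 127, 90.9, 68.9 and 87.6 CPM in WT, a log2 fold change of 1.71 ± 0.17 (SE). Transcript 13283 (1011641 to 1014528, plus strand) was the second largest fall in BIS3 at 48 h after 13373, at −1.84 ± 0.25 (SE), with 40.0, 28.5 and 30.2 CPM in BIS3 against 86.5, 142, 78.4, 149 and 131 CPM in WT.

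Transcript 13024 (386621 to 388482, minus strand) was the largest fall in GB2 at 48 h. It had 11.4, 7.12 and 11.6 CPM in GB2 and 26.8, 26.4 and 26.8 CPM in BIS3, against 29.1, 45.1, 31.7, 50.2 and 58.2 CPM in WT. The log2 fold change over WT was −2.10 ± 0.24 in GB2 and −0.71 ± 0.20 in BIS3 (SE), and GB2 against BIS3 was −1.39 ± 0.28 (SE, edgeR adjusted p = 0.00112, and 0.0501 with the WT replicate 2 library of 48 h kept). In BIS18 it was −0.85 ± 0.20 (SE, edgeR adjusted p = 0.00432), a call that 3 alternatives lost. Among these, the replicate block and WT replicates 1 to 3 only overlap with each other.

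**Figure D5:**
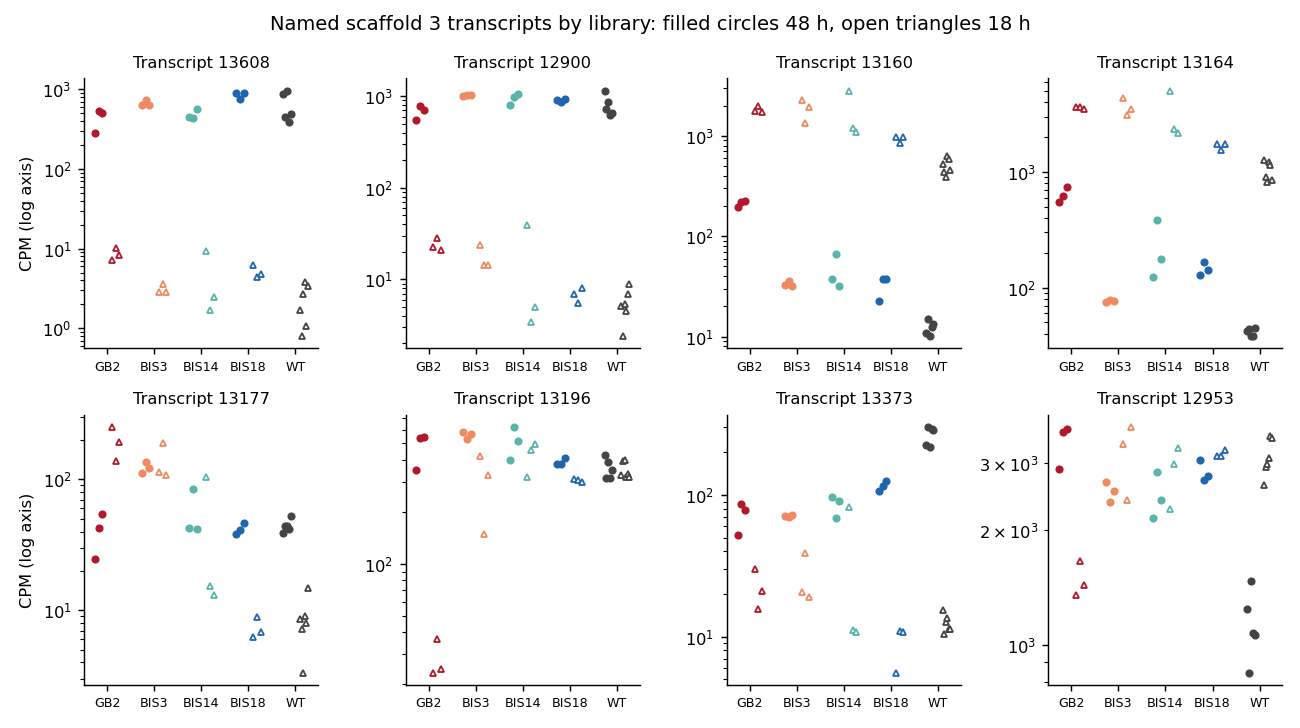
Normalized CPM (log axis) of 8 scaffold 3 transcripts in each library, by strain; filled circles are 48 h and open triangles 18 h. Transcripts 13160 and 13164 are highest in GB2 at 48 h (196 to 225 and 550 to 742 CPM), 13196 is lowest in GB2 at 18 h (23.4 to 36.7 CPM), and 13373 is highest in WT at 48 h (219 to 300 CPM).

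At 18 h the strongest rise in GB2 and BIS3 was in transcript 13177, also in bin 8 (759353 to 763599, plus strand). It had 250, 139 and 195 CPM in GB2, 115, 189 and 108 CPM in BIS3 and 104, 15.4 and 13.2 CPM in BIS14, against 3.35, 8.32 and 14.7 CPM (lowest, median, highest) in WT. GB2 and BIS3 lay far above WT, and the BIS14 value rested on 1 library. Over WT it was on the log2 scale 4.41 ± 0.42 in GB2 (SE, edgeR adjusted p = 3.35e-08) and 3.92 ± 0.44 in BIS3 (SE, edgeR adjusted p = 2.16e-06). At 48 h it had 24.6, 42.7 and 54.0 CPM in GB2 and 112, 136 and 123 CPM in BIS3, against 39.1, 43.9, 43.7, 42.2 and 53.0 CPM in WT. At 48 h only BIS3 of the 4 engineered strains passed the test against WT, at 1.45 ± 0.18 (SE, log2), and GB2 against BIS3 was −1.60 ± 0.22 (SE, edgeR adjusted p = 2.82e-05). It sits in the longest run of members higher in GB2 at 18 h, transcripts 13176 to 13179 (756608 to 766491), whose log2 fold changes were 0.31 to 4.41.

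Transcript 13196, in the next bin (802631 to 804871, minus strand), was the strongest fall in GB2 at 18 h. It had 23.4, 36.7 and 24.6 CPM in GB2 and 424, 148 and 328 CPM in BIS3, against 318, 330 and 403 CPM (lowest, median, highest) in WT. GB2 lay far below, while BIS3 spread around WT, its lowest library being replicate 2. On the log2 scale it was −3.70 ± 0.28 against WT (SE, edgeR adjusted p = 2.25e-09) and −3.46 ± 0.30 against BIS3 (SE, edgeR adjusted p = 3.87e-07). At 48 h it had 352, 539 and 543 CPM in GB2, against 427, 315, 388, 316 and 349 CPM in WT, so that the fall was not present there. The longest run of members lower in GB2 at 18 h was transcripts 13428 to 13432 (1346785 to 1362545), from −1.62 to −0.62. Without GB2 replicate 1 at 18 h, transcript 13432 was no longer called (edgeR adjusted p = 0.056).

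Further members differed at 18 h at lower levels. Transcript 13149 (698534 to 699580, plus strand) had 33.7, 34.8 and 30.6 CPM in GB2, 67.3, 55.1 and 52.6 CPM in BIS3 and 78.5, 31.6 and 33.0 CPM in BIS14, against 7.24, 9.19 and 12.4 CPM (lowest, median, highest) in WT. All 3 strains lay above WT without overlap, at 1.75 ± 0.28, 2.60 ± 0.26 and 2.31 ± 0.27 (SE, log2). Transcript 13274 (993907 to 995067, minus strand) was at 3.30 ± 0.38 in GB2 and 1.94 ± 0.47 in BIS14 (SE, log2), the second of which was 1.06 and lost its call without BIS14 replicate 1 (edgeR adjusted p = 0.155), as it did with the replicate block and with WT replicates 1 to 3 alone. Transcript 13283 had counts of 0, 2 and 4 in the GB2 libraries, and its fitted log2 fold change of −3.49 ± 0.59 (SE) is no bound. In BIS3, transcripts 12910 and 12987 were the largest falls, at −2.08 ± 0.39 and −1.76 ± 0.35 (SE, log2). In BIS14, transcripts 13112 and 13585 fell by 1.71 ± 0.47 and 1.09 ± 0.29 on the log2 scale (SE), and 4 alternatives lost each call. Among these, the replicate block and WT replicates 1 to 3 only overlap with each other.

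The single member called in BIS18 at 18 h was transcript 13147 (695797 to 696897, minus strand). It had 15.4, 28.2 and 18.3 CPM in BIS18, against 6.45, 9.08 and 11.4 CPM (lowest, median, highest) in WT. The groups did not overlap, as the naming rule required, and the log2 fold change was 1.21 ± 0.23 (SE, edgeR adjusted p = 0.0101). The call was lost without BIS18 replicate 2 at 18 h (edgeR adjusted p = 0.294), with WT replicates 1 to 3 only (0.0515), with WT replicates 4 to 6 only (0.135) and with the replicate block (0.0717).

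Between GB2 and BIS3 at 18 h, members 12909 and 13087 were higher in GB2. Transcript 12909 (126051 to 129167, minus strand) had 17.5, 20.2 and 17.2 CPM in GB2, against 3.79, 0.903 and 1.91 CPM in BIS3, and 13087 (538396 to 541004, minus strand) had 94.7, 87.1 and 75.4 CPM against 11.4, 27.1 and 6.69 CPM. Neither overlapped, as the naming rule required, and the log2 fold changes were 2.98 ± 0.42 and 2.46 ± 0.30 (SE). Transcript 13617 (1809071 to 1811738, minus strand) was lower, with 1.95, 5.50 and 2.98 CPM in GB2, against 52.1, 19.0 and 65.9 CPM in BIS3 (log2 fold change −3.78 ± 0.99, SE, edgeR adjusted p = 0.00691).

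The change between growth phases itself differed from that of WT for many members in GB2 and for few in BIS18. By the interaction term, 295 members (39.5%) differed in GB2, against 40.0% of all transcripts tested, of which 131 had a more positive and 164 a more negative change than WT. In BIS3, 143 (19.2%) differed, 73 more positive and 70 more negative, against 17.6%. In BIS14, 136 (18.2%) differed, 64 and 72, against 15.5%, and in BIS18 28 (3.75%), 21 and 7, against 3.41%. The balance of more positive and more negative changes turned under 1 or more alternatives in each strain, and the BIS18 count was 3 with the WT replicate 2 library of 48 h kept and 8 to 16 without any one BIS18 library. In BIS14 the count was 85 without replicate 2 at 48 h, and it was 68 in BIS14 and 82 in BIS3 with WT replicates 1 to 3 only.

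Transcript 13177 had the most negative such difference in GB2, −4.61 ± 0.51 (SE, edgeR adjusted p = 9.40e-09), since it was lower at 48 h than at 18 h in GB2 and higher in WT. The most negative in BIS3 and in BIS14 were both in transcript 13373, at −2.99 ± 0.51 and −3.07 ± 0.48 (SE). Without BIS14 replicate 1 at 18 h the BIS14 value was −1.45. Transcript 13468 (1449802 to 1451696, plus strand) was the most positive in GB2, with 8.35, 9.49 and 7.71 CPM at 48 h and 0 counts in all 3 libraries at 18 h. Its fitted difference of 5.25 ± 1.04 (SE) rests on those zeros and is no bound, and WT at 18 h had only 3 to 12 counts. The most positive in BIS3 was transcript 13320 (1095393 to 1096891, minus strand) at 2.82 ± 0.62, in BIS14 transcript 12973 (276130 to 277462, minus strand) at 1.95 ± 0.37, and in BIS18 transcript 13486 (1486552 to 1488291, minus strand) at 1.50 ± 0.31 (SE), a call lost with WT replicates 1 to 3 only (edgeR adjusted p = 0.067). In BIS18, transcript 13024 was the most negative at −1.88 ± 0.34 (SE).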

How the data were processed

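From paired MiSeq reads cleaned with BBTools, the authors made alignments with HISAT2 and, with featureCounts, a count per transcript. Tool versions, strand setting and treatment of reads with several matches are not given in the sources used here. The deposited values are raw counts, from which the authors calculated FPKM for their own results. Scaffold 3 was analysed in 35 of 36 libraries. The library left out, WT replicate 2 at 48 h, had 657951 counts. CPM (TMM normalization) and FPKM (library total and listed length, log2 with a pseudocount of 1) were computed here.

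Tests were edgeR 4.0.16 quasi-likelihood tests in R 4.3.3 (limma 3.58.1) with filterByExpr, Benjamini-Hochberg adjustment over all transcripts tested and a threshold of 0.05. Strains were compared in one fit per time point, and growth phase and its interaction with strain in one fit of 10 groups. Standard errors are the absolute log2 fold change over the square root of F. Block medians of scaffolds and 100 kb bins have no test.

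Named transcripts were the 6 with the highest mean FPKM and, for each comparison, the largest called changes in each direction (5 for WT between times, otherwise 2) with at least 10 CPM in 1 group and no overlap between libraries, the largest interaction each way, and the longest runs of like calls. The pattern of transcript 12953 between times was chosen after its values were seen. Members and lists were chosen with earlier results of these data known. A count of 0 allows up to 3 counts, and such limits cover counting error only. Between replicates the spread over 49 pairs was 1.15 to 15.4 times that of counting (median 3.71, chi-square per degree of freedom). The scripts were tested on simulated data. Alternatives used DESeq2 1.42.0 among others. Figures were drawn with matplotlib 3.10.9 and tables made with pandas 2.3.3, scipy 1.17.1 and numpy 2.4.6 under Python 3.11.15. A gene table of another strain matched 0 identifiers.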

Additional observations from a re-analysis of the deposited data

Results flagged for a closer look

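The strains made from one another stood on opposite sides of WT. All BIS3 libraries lay above and all GB2 libraries below every WT library in the block level of scaffold 3, at both times, and the median of GB2 against BIS3 relative to other transcripts was −0.233 at 48 h and −0.200 at 18 h (log2). This difference was not tested, since the scaffold was chosen by earlier results of these libraries, in which the BIS3 difference from WT is taken to be included. At 48 h the BIS14 and BIS18 libraries also lay below every WT library. GB2 against WT, at −0.102 at 48 h and −0.063 at 18 h, lay within the range of other scaffolds, whose lowest were −0.126 and −0.111.

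The change between growth phases differed from that in WT, by the interaction term of edgeR at an adjusted p under 0.05, for 295 members in GB2, 143 in BIS3, 136 in BIS14 and 28 in BIS18. These are 39.5%, 19.2%, 18.2% and 3.75% of the members tested, against 40.0%, 17.6%, 15.5% and 3.41% of all transcripts. The single members with the largest differences of log2 change were 13468 (5.25) and 13177 (−4.61) in GB2, 13320 (2.82) and 13373 (−2.99) in BIS3, 12973 (1.95) and 13373 (−3.07) in BIS14, and 13486 (1.50) and 13024 (−1.88) in BIS18. Without BIS14 replicate 1 at 18 h the value of 13373 in BIS14 was −1.45, and the call of 13486 was lost with WT replicates 1 to 3 only (edgeR adjusted p = 0.067).

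A WT library stood far from the others of its group for 2 transcripts. Transcript 13112 had 18.9 CPM in WT replicate 4 at 48 h, and the nearest WT library had 12.2 CPM. Transcript 13585 had 54.6 CPM in WT replicate 4 at 18 h, with the nearest at 36.8 CPM. Of 84 groups of WT values examined these 2 passed, and chance alone marks about 1 in 20 groups.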

How the results depend on the processing

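No block median and no named transcript changed sign under the alternatives run for it, but the balance of higher and lower calls turned in some comparisons. Block medians were compared only under RLE normalization, at least 10 counts in every library, the WT replicate 2 library kept and 1 library left out. They were not compared under the WT subsets, the replicate block, fits of the compared groups, no low-count filter or DESeq2. Of 154 alternatives for counts of members called, 127 stayed within 1.5 times the count, as did 172 of 183 that left out 1 library. Of 554 alternatives for named transcripts, 537 kept the call, as did 687 of 694 that left out 1 library. RLE normalization, no low-count filter and at least 10 counts in every library each left all 19 counts within that range.

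With the WT replicate 2 library of 48 h kept, the members called at 48 h against WT were 135 in GB2, 78 in BIS3, 95 in BIS14 and 21 in BIS18, and 35 in GB2 against BIS3. By the interaction term they were 76 in BIS3, 61 in BIS14 and 3 in BIS18. With WT replicates 1 to 3 only, the counts against WT were 129 in BIS3 and 152 in BIS14 at 48 h, and 143 in BIS3, 41 in BIS14 and 9 in BIS18 at 18 h. The interaction counts were 82 in BIS3, 68 in BIS14 and 9 in BIS18. With WT replicates 4 to 6 only, they were 0 in BIS18 at 18 h and 7 for the interaction in BIS18. Fits restricted to the compared groups gave 5 in BIS18 at 18 h and 57 for its interaction, and DESeq2 called 2 in BIS18 at 18 h. The cause was not tested. The subsets of WT replicates have fewer samples by construction, and at 48 h replicates 1 to 3 lack replicate 2. At 18 h the subsets are of equal size, and BIS14 against WT had 51 members higher and 52 lower with replicates 4 to 6. Only WT has replicates 4 to 6. Between WT libraries at 18 h the chi-square per degree of freedom was 1.15 to 2.05 within replicates 1 to 3. It was 1.67 to 2.36 within replicates 4 to 6 and 3.07 to 4.52 across these sets.

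The replicate block gave 121 members in BIS3 and 139 in BIS14 against WT at 48 h, 129 in BIS3, 35 in BIS14 and 10 in BIS18 at 18 h, and 11 for the interaction in BIS18. Whether replicate numbers pair the samples was not settled. Deviations of like-numbered libraries correlated at −0.185 to 0.287 at 18 h and −0.201 to 0.158 at 48 h, with 4 of 30 and 3 of 26 pairs over 0.1. Between 18 h and 48 h of the same strain they correlated at −0.233 to 0.241, with 6 of 17 over 0.1. Not every pair exceeded 0.1 in any of the 3 sets, so the block was not taken as a pairing. A true pairing with weak shared deviations could also fail this rule, so that pairing is not excluded.

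The balance turned under 4 alternatives for BIS14 against WT at 48 h, among them the replicate block (81 higher, 58 lower) and the WT replicate 2 library kept (48 and 47). It turned under 10 for BIS18 at 48 h (82 and 55 with the replicate block) and under 2 for BIS14 at 18 h. For the interaction it turned under 3 alternatives in GB2, 2 in BIS3, 14 in BIS14 and 1 in BIS18.

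Leaving out 1 library at a time, the counts against WT were 160 (without BIS14 replicate 2) to 292 in BIS14 at 48 h, 76 (without BIS18 replicate 1 or 2) to 138 in BIS18 at 48 h and 0 to 1 in BIS18 at 18 h. Interaction counts were 85 (without BIS14 replicate 2 at 48 h) to 161 in BIS14 and 8 (without BIS18 replicate 3 at 18 h) to 34 in BIS18, which was under 28 without any one BIS18 library. The block medians of 48 h over 18 h were 0.116 to 0.130 in GB2, 0.0755 to 0.0996 in BIS18 and 0.161 to 0.190 in WT. They were 0.0022 to 0.0250 in BIS18 against WT at 18 h, and −0.253 to −0.232 at 48 h and −0.203 to −0.177 at 18 h in GB2 against BIS3. For 48 h over 18 h the medians with all libraries, 0.102 in GB2 and 0.159 in WT, lie below their ranges. The low-count filter was applied anew in each fit, and the cause was not tested.

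With at least 10 counts in every library, the block medians of 48 h over 18 h were 0.118 in GB2, 0.0988 in BIS3, 0.0488 in BIS14, 0.0592 in BIS18 and 0.103 in WT. At 18 h they were 0.159 in BIS3 against WT and −0.0258 in BIS14 against WT. The spread between the highest and the lowest bin for the growth-phase change in WT, 0.816 in 100 kb bins, was 1.34 in 50 kb bins and 0.585 in 200 kb bins. Depth limits the sparse members most: 87 of 780 were not tested at 18 h and 32 at 48 h.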
